A study of Mus musculus with 6 samples.

Results

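Aoah, Pla2g7, Lacc1 and Igsf6 are 4 mouse genes used mainly by macrophages and related myeloid cells, and their transcripts were followed here in the lungs of TNF+ and TNF- mice. They were chosen from the same comparison that is described below, as myeloid genes among those with the most consistent rise in TNF+ lungs, so their difference between the genotypes is given as a description with no test. They are 4 of the 49568 gene symbols in the count table and of the 19199 that passed the filter on low counts, and all 4 passed it. The RNA came from 6 lungs, 3 from TNF+ mice (genotype label TNF-Tg) and 3 from TNF- mice (label WT), which were females aged 4 months, 1 library to each. TNF+ mice carry 1 copy of the human TNF gene and develop chronic arthritis and lung vascular disease, and TNF- mice are their littermates without it. The promoter that drives the transgene is not given in the sources used here. The human transcript is not measured by the table, but mouse Tnf had 106, 213 and 405 counts in TNF+ replicates 1, 2 and 3 and 16, 14 and 35 in TNF- replicates 1, 2 and 3.

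The 4 products have different roles in phagocytes. Aoah encodes acyloxyacyl hydrolase, which removes fatty acids from the lipid A part of bacterial lipopolysaccharide (LPS) and so inactivates it. Pla2g7 encodes the secreted acetylhydrolase that degrades platelet-activating factor (PAF) and oxidized phospholipids. Lacc1 encodes a macrophage enzyme of purine nucleoside metabolism that has also been linked to the conversion of citrulline to ornithine. Igsf6 encodes a membrane receptor of the immunoglobulin superfamily, found on dendritic cells and macrophages, and is therefore not an enzyme.

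The libraries held 25396923 to 30049463 counts in TNF+ lungs and 31400978 to 32529408 in TNF- lungs, so that 3 counts correspond to 0.0922 to 0.118 CPM (counts scaled to library size). A pair of lungs stood apart. TNF+ replicate 1 had 5.22% of its counts on Gm42418, against 0.0774% to 0.274% in the other lungs, and TNF- replicate 1 had 102003 counts on the keratin genes Krt4 and Krt13 together, against 1 to 13 elsewhere. The epithelial, endothelial and mesenchymal markers of lung were present in all 6 libraries. Over the whole table, 47.4% of genes tested differed between the genotypes at an adjusted p under 0.05 (edgeR quasi-likelihood test), 24.0% higher and 23.4% lower in TNF+ lungs, with a median log2 fold change of 0.03. All 3 TNF+ lungs lay above all 3 TNF- lungs for 30.5% of genes tested. The 4 genes are among these, as the choice of them ensured.

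In TNF+ lungs, Aoah transcripts were 47.3 times as abundant as in TNF- lungs, those of Pla2g7 52.8 times, those of Igsf6 16.7 times and those of Lacc1 9.29 times. In a whole-lung extract, more cells of a type and more RNA in each cell cannot be told apart. Aoah had 2779, 3180 and 2830 normalized read counts in TNF+ replicates 1, 2 and 3 and 53.5, 65.2 and 66.6 in TNF- replicates 1, 2 and 3. Normalized counts are read counts scaled to a common library size by the trimmed mean of M-values. The lowest TNF+ lung was 41.7 times the highest TNF- lung, and the log2 fold change was 5.56 (SE 0.13). In TNF- lungs Aoah rested on few reads, 56, 68 and 75 raw counts, for which counting error alone gives a coefficient of variation of 11.5% to 13.4%, compared with 11.6% observed.

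Pla2g7 had 14772, 18497 and 12399 normalized counts in TNF+ replicates 1, 2 and 3 and 267, 315 and 283 in TNF- replicates 1, 2 and 3. It was the most variable of the 4 among TNF+ lungs, with a coefficient of variation of 20.2%, while the other 3 genes varied by 6.65% to 10.8%. Its log2 fold change was 5.72 (SE 0.19), and its lowest TNF+ lung was 39.3 times its highest TNF- lung.

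Lacc1 had 1512, 1509 and 1692 normalized counts in TNF+ replicates 1, 2 and 3 and 163, 163 and 180 in TNF- replicates 1, 2 and 3. Its spread was the smallest of the 4 in both genotypes, at 6.65% in TNF+ and 5.89% in TNF- lungs, and its log2 fold change was 3.22 (SE 0.11). Igsf6 had 3316, 3710 and 2991 normalized counts in TNF+ lungs and 217, 188 and 194.6 in TNF- lungs, in the order of replicates 1, 2 and 3. This was a log2 fold change of 4.06 (SE 0.12), and the 2 genotypes did not overlap for any of the 4 genes. TNF+ replicate 2 was the highest TNF+ lung for Aoah, Pla2g7 and Igsf6, whereas TNF+ replicate 3 was the highest for Lacc1. The 4 genes together took 659 to 890 CPM in TNF+ lungs and 23.2 to 24.2 CPM in TNF- lungs.

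**Figure D1:**
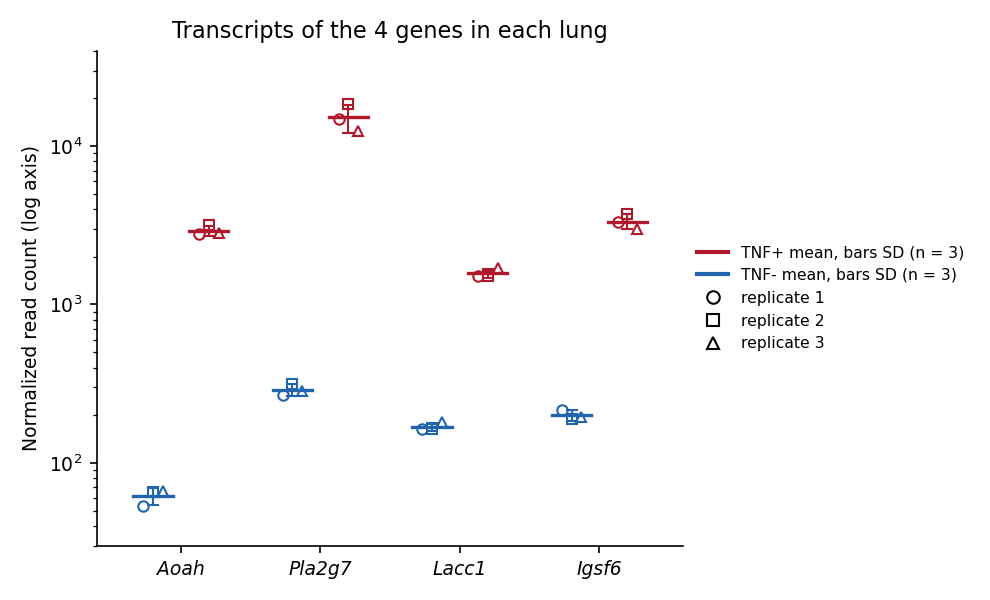
Normalized read counts (log axis) of Aoah, Pla2g7, Lacc1 and Igsf6 in each lung, TNF- in blue and TNF+ in red, with symbols for replicates, lines for means and bars for SD (n = 3). All TNF+ lungs lie above all TNF- lungs, with Aoah at 53.5 to 66.6 in TNF- lungs as the lowest set and Pla2g7 at 12399 to 18497 in TNF+ lungs as the highest.

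The 4 genes lie on different chromosomes, and their neighbours were examined as well. In the GENCODE M21 annotation of GRCm38, Aoah (ENSMUSG00000021322.8) spans chr13:20794113-21036617 on the plus strand, with 21 exons in its longest transcript. Pla2g7 (ENSMUSG00000023913.17) spans chr17:43568098-43612201 on the plus strand with 12 exons. Lacc1 (ENSMUSG00000044350.14) spans chr14:77024200-77036904 on the minus strand with 8 exons, and Igsf6 (ENSMUSG00000035004.3) spans chr7:121064067-121074572 on the minus strand with 6 exons. Of 13 genes that overlap or flank them, 7 were tested, 1 rose and 0 fell, against 24.0% higher and 23.4% lower over all genes tested.

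The gene that rose was Ccdc122, which begins inside the first part of Lacc1 on the opposite strand and shares 133 exon bases with it, 3.65% of those of Lacc1. It had 105, 169 and 101 counts in TNF+ replicates 1, 2 and 3 and 18, 26 and 28 in TNF- replicates 1, 2 and 3 (log2 fold change 2.60, SE 0.30, adjusted p = 0.00029). Ccdc122 had 5.64% to 11.6% as many counts as Lacc1 in TNF+ and 10.5% to 15.3% in TNF- lungs. The kit marks strand, but whether counting used it is not given in the sources used here, so reads in the shared exon cannot be assigned for certain. Igsf6 lies inside an intron of Mettl9 on the opposite strand, with 0 shared exon bases. Normalized counts of Mettl9 were 919, 879 and 874 in TNF+ and 771, 837 and 824 in TNF- lungs, in the order of replicates. Its log2 fold change was 0.14 (SE 0.09, adjusted p = 0.253). The TNF+ lungs lay above the TNF- lungs, as they did for 30.5% of genes tested. Elmo1 beside Aoah was at 0.10 (SE 0.11, adjusted p = 0.485), Ankrd66 beside Pla2g7 at 0.13 (SE 0.29, adjusted p = 0.744), and Mfsd13b beside Igsf6 at -0.06 (SE 0.59, adjusted p = 0.938). Serp2 and Enox1, on either side of Lacc1, were at -1.01 (SE 0.51, adjusted p = 0.134) and 0.58 (SE 0.32, adjusted p = 0.169). The antisense gene 1700071M16Rik shares 319 exon bases with Pla2g7, 11.0% of those of Pla2g7, and there too reads cannot be assigned to a strand for certain. It had 0 to 2 counts in each lung, and Gm25605, Olfr1370, Tdrd6 and Otoa were also under the filter on low counts. Gm47727, a pseudogene within Aoah, was not matched to a row of the table.

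**Figure D2:**
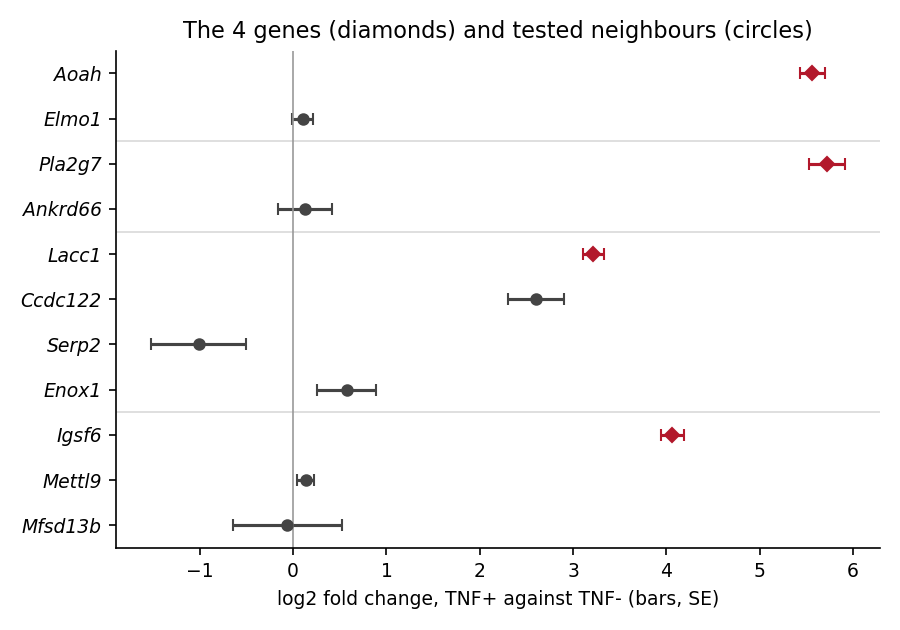
The log2 fold change, TNF+ against TNF-, with bars for SE, of Aoah, Pla2g7, Lacc1 and Igsf6 (diamonds) and of the tested genes that overlap or flank each (circles, grouped under it). Only Ccdc122 (2.60) lies apart from 0 at an adjusted p under 0.05 among the 7 neighbours, while Mettl9, the gene that holds Igsf6 in an intron, is at 0.14.

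The start regions of the 4 genes are shown to compare their base composition, which the choice of the genes did not use. Each is the 300-base window from RefSeq, build GRCm38.p6, of 250 bases before and 50 after the annotated start, read 5′ to 3′ on the strand of the gene, and all 4 genes were matched. The window of Aoah is chr13:20793863-20794162 on the plus strand, that of Pla2g7 chr17:43568201-43568500 on the plus strand, that of Lacc1 chr14:77036568-77036867 on the minus strand and that of Igsf6 chr7:121074481-121074780 on the minus strand. Capitals mark matches to the motifs named below.
Aoah: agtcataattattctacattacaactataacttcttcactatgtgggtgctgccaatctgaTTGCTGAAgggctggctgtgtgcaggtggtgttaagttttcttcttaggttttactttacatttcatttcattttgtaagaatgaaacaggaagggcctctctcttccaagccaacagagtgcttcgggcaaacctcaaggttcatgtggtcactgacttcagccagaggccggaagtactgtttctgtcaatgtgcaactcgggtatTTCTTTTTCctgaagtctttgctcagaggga
Pla2g7: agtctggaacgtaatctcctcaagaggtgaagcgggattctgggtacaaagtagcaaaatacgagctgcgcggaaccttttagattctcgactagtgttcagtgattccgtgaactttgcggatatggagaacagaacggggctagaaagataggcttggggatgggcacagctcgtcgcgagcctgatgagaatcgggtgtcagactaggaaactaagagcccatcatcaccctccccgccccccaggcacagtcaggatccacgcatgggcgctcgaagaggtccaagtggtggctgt
Lacc1: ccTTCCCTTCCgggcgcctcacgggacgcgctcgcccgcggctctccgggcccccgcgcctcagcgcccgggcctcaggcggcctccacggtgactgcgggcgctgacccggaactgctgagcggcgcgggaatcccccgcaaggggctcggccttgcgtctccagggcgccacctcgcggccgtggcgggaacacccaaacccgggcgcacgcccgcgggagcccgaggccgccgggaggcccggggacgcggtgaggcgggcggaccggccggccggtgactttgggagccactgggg
Igsf6: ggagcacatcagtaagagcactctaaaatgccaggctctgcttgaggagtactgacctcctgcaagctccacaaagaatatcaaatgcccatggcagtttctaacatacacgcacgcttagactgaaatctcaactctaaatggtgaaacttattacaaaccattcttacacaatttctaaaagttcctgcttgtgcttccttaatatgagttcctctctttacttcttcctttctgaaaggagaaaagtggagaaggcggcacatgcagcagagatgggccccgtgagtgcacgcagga

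In base composition the window of Lacc1 stood apart, while those of Aoah and Igsf6 were close to each other. That of Lacc1 was 79.3% G and C with 45 CpG, the 98.7 and 98.1 percentiles of 32851 windows, and 96 of its bases lie within Ccdc122. Those of Aoah (43.0% and 3 CpG) and Igsf6 (44.7% and 5 CpG) were below the median of all windows (52.7% and 7 CpG), and that of Pla2g7 (54.0% and 17 CpG) was above it. The RefSeq start of Aoah is the GENCODE one, whereas those of Igsf6, Lacc1 and Pla2g7 lie 42, 287 and 353 bases further inside the gene. Short motifs of factors active in myeloid cells were searched on both strands, where N is any base. TTGCNNAA, bound by C/EBP factors and held by 10.8% of all windows, was found in Aoah at position -189 from the start. GAAANNGAA, bound by IRF factors (8.56% of windows), was found in Aoah on the reverse strand at position 20. GGAANNGAA, a joint PU.1 and IRF motif (8.24%), was found in Lacc1 on the reverse strand at position -248. GAGGAAGT for PU.1 (3.20%), GGANTTTCC for NF-kB (1.25%), TGANTCA for AP-1 (7.81%) and CACGTG for MiT/TFE factors (7.15%) were in 0 of the 4 windows, and the matches found did not overlap. These letters describe the windows and do not show binding by a factor.

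When all tested genes were ordered by the p-value of the comparison, which is the measure closest to the one that chose them, Aoah stood at rank 1, Igsf6 at 4, Pla2g7 at 7 and Lacc1 at 9. The ranks in between belonged to Nfkbie, an inhibitor of NF-kB (log2 fold change 3.24, SE 0.09), Clec3b (-4.51, SE 0.13), the complement protein gene Cfp (3.59, SE 0.11), the macrophage surface marker Adgre1 (3.20, SE 0.10) and the integrin gene Itgam (2.64, SE 0.09). Ms4a7, at rank 10, was just outside (5.11, SE 0.18). Ordered instead by log2 fold change from the largest rise downwards, the 4 genes stood lower. Pla2g7 was at rank 73, Aoah at 87, Igsf6 at 280 and Lacc1 at 445. Falls such as that of Clec3b come last in this order, whatever their size. The p-value takes in the spread between lungs as well as the size of the difference.

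Levels of different genes can be compared only per length of transcript. On that scale (RPKM, reads per kilobase of annotated exon scaled to library size), TNF- lungs held 3.29 ± 0.28 of Pla2g7, 3.04 ± 0.23 of Igsf6, 1.53 ± 0.09 of Lacc1 and 0.345 ± 0.040 of Aoah (mean ± SD, n = 3). Pla2g7 (3.04 to 3.59) and Igsf6 (2.86 to 3.30) overlapped between lungs, and the other steps in this order did not. The length was that of all annotated exons, 5925 bases for Aoah, 3644 for Lacc1, 2905 for Pla2g7 and 2175 for Igsf6. Their longest transcripts have 2921, 2444, 2097 and 2175 bases, so this choice of length lowers the level of Aoah most. Among the 18634 tested genes with an exon length, Aoah lay at the 10.3 percentile of TNF- levels, Lacc1 at 30.7, Igsf6 at 45.0 and Pla2g7 at 46.8. In TNF+ lungs the levels per length were 173 ± 35.0 for Pla2g7, 50.8 ± 5.48 for Igsf6, 16.4 ± 1.22 for Aoah and 14.3 ± 0.95 for Lacc1. These were percentiles 97.6, 93.4, 82.0 and 79.5, respectively. Aoah was thus below Lacc1 in TNF- lungs, while in TNF+ lungs it was at 15.5 to 17.8 and Lacc1 at 13.7 to 15.4, a narrow gap. As TPM, scaled by the sum over all genes per length, their ranges across TNF+ lungs overlapped, with Aoah at 20.2 to 35.6 and Lacc1 at 17.9 to 34.6. Both scales keep the ratio of the genes within a lung, and Aoah was above Lacc1 in each TNF+ lung on both. The TPM of Aoah and Lacc1 were 20.2 and 17.9, 30.7 and 23.7, and 35.6 and 34.6 in TNF+ replicates 1, 2 and 3.

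Aoah and Pla2g7 kept nearly the same proportion to each other in both genotypes. The ratio of Aoah to Pla2g7 counts was 0.188, 0.172 and 0.228 in TNF+ replicates 1, 2 and 3 and 0.201, 0.207 and 0.235 in TNF- replicates 1, 2 and 3, so the genotypes overlapped. The other 5 ratios among the 4 genes did not overlap. The ratio of Aoah to Lacc1 was 1.67 to 2.11 in TNF+ and 0.327 to 0.400 in TNF- lungs, and that of Pla2g7 to Igsf6 was 4.15 to 4.98 and 1.23 to 1.68. Lacc1 to Igsf6 went the other way, at 0.407 to 0.566 in TNF+ and 0.753 to 0.927 in TNF- lungs. Both genes of a ratio are read from the same library, so library size cancels out of these values.

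Genes whose pattern was most like each of the 4 were found by the root mean square difference of log2 CPM, centred for each gene, over the 6 lungs and among 14998 genes of sufficient level. The measure takes in the genotype difference, so it describes genes with log2 fold changes of similar size. Closest to Aoah were the macrophage transcription factor gene Spic (0.14), Pla2g7 (0.16), the macrophage elastase gene Mmp12 (0.19), the chemokine gene Ccl19 (0.20) and Gpr162 (0.22). Closest to Pla2g7 were Spic (0.15), Aoah (0.16), Mmp12 (0.19), Ccl19 (0.22) and Gpnmb (0.24). Spic was thus nearer to both Aoah and Pla2g7 than they were to each other. Mmp12 and Ccl19 were also listed for both, whereas Gpr162 and Gpnmb were not. Lacc1 was closest to Nfkbie (0.08), Adgre1 (0.11), Slc6a20a (0.13), the cytokine receptor gene Csf2rb2 (0.15) and Lhfpl2 (0.15). Igsf6 was closest to the heme oxygenase gene Hmox1 (0.16), Ms4a6d (0.20), the PAF receptor gene Ptafr (0.23), the complement gene C1qa (0.23) and Tnip3 (0.24).

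Because the 4 genes mark myeloid cells, they were set against markers of the cell types a lung holds. All 8 pan-myeloid markers rose in TNF+ lungs (median log2 fold change 2.75), from the lysozyme gene Lyz2 (1.42, SE 0.16) to Aif1 (3.94, SE 0.32), and their summed level was 10066 to 10886 CPM in TNF+ and 3027 to 3062 CPM in TNF- lungs. Lyz2 made up 61.2% to 70.6% of that sum in TNF+ and 84.0% to 86.1% in TNF- lungs, and the other 7 markers summed to 2959 to 3969 and 421 to 487 CPM. Of the interstitial macrophage and monocyte markers, 11 of 12 rose and 0 fell (median 2.00), with sums of 3121 to 3810 and 569 to 586 CPM. Alveolar macrophage markers were split. Marco, a scavenger receptor gene, rose most (7.10, SE 0.58), with Atp6v0d2 and Chil3, whereas Fabp1, Siglecf, Ear1, Krt79 and Plet1 fell, so that 3 of 10 rose and 5 fell (median -0.46). The sum of the list was 2231 to 3701 CPM in TNF+ and 312 to 414 CPM in TNF- lungs, with Marco as 73.5% to 85.3% of it in TNF+ lungs. Without Marco the sums were 544 to 626 CPM in TNF+ and 304 to 385 CPM in TNF- lungs. Dendritic cell markers rose in 3 of 7 and fell in 1 (median 0.46, 98.8 to 119 against 74.8 to 81.7 CPM), neutrophil markers rose in 1 of 7 and fell in 4 (-1.04, 66.2 to 103 against 89.8 to 152 CPM), and lymphocyte markers rose in 7 of 12 and fell in 2 (0.69, 2092 to 4162 against 191 to 442 CPM). Jchain, a gene of antibody-secreting cells, made up 86.1% to 92.3% of the lymphocyte sum in TNF+ lungs, and without it the sums were 290.5 to 319 and 165 to 264 CPM. Epithelial markers fell in 6 of 7 (-1.40, 16563 to 21702 against 33680 to 40853 CPM), endothelial markers in 6 of 6 (-1.31, 1380 to 1596 against 2749 to 3311 CPM) and mesenchymal markers in 4 of 6 (-0.63, 1054 to 1077 against 1337 to 2098 CPM), and 0 markers of these 3 lists rose. Over all genes tested 24.0% were higher and 23.4% lower. The rises in the alveolar macrophage list (3 of 10) are not far from the former share. The dendritic cell list, with 3 of 7 higher and 1 lower, is too short to be read either way. No marker was at 0 in any list. The part of cell composition in the levels of the 4 genes was not tested.

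The 4 genes were also set relative to the mean of the 8 pan-myeloid markers. For any marker list, the same mean was subtracted from all 4 genes in a lung. The gaps between the genes therefore closely repeat those of their log2 fold changes. On the log2 CPM scale, Aoah stood at -2.50, -2.34 and -2.25 in TNF+ replicates 1, 2 and 3 and at -5.07, -4.99 and -5.11 in TNF- replicates 1, 2 and 3, a difference of 2.69. Pla2g7 stood at -0.09, 0.20 and -0.12 and at -2.79, -2.75 and -3.05, a difference of 2.86. Igsf6 stood at -2.25, -2.12 and -2.17 and at -3.09, -3.49 and -3.59, a difference of 1.21. Lacc1 stood at -3.38, -3.42 and -2.99 and at -3.49, -3.69 and -3.70, a difference of 0.36. On this scale the TNF+ lungs lay above the TNF- lungs with no overlap for 1.04% of all genes tested. The 4 genes are among these, but they were chosen for their separation in the same lungs, so nothing is read from it. For Lacc1 the lowest TNF+ lung (-3.42) was close to the highest TNF- lung (-3.49), and the difference was 0.23 without TNF+ replicate 3. Against the interstitial macrophage and monocyte markers the differences were 3.11 for Aoah, 3.28 for Pla2g7, 1.63 for Igsf6 and 0.78 for Lacc1.

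**Figure D3:**
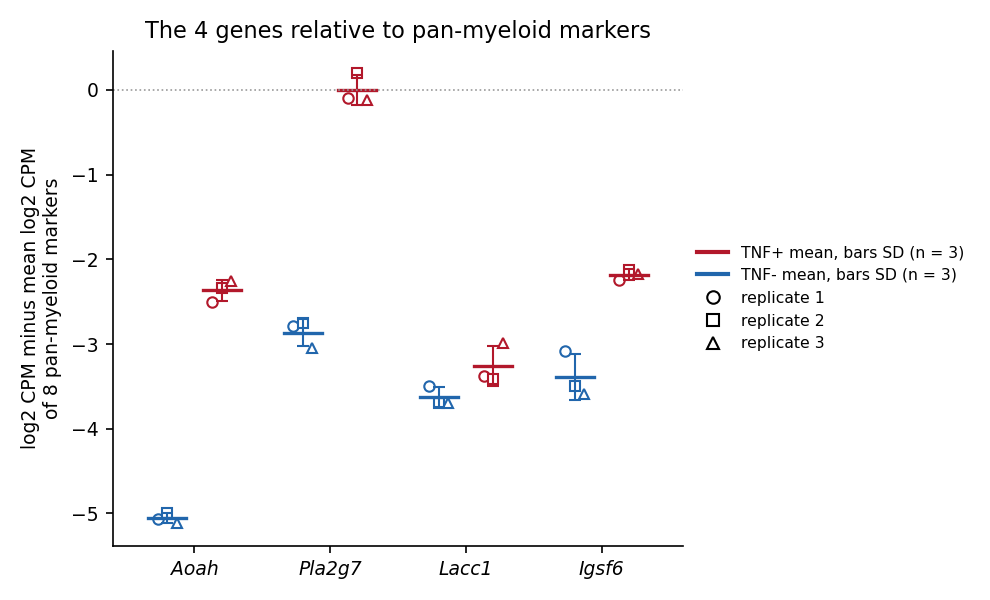
The log2 CPM of each gene minus the mean log2 CPM of 8 pan-myeloid markers in the same lung, TNF- in blue and TNF+ in red, with symbols for replicates, lines for means and bars for SD (n = 3). Aoah and Pla2g7 are 2.69 and 2.86 higher in TNF+ lungs on this scale, Igsf6 1.21 higher and Lacc1 0.36 higher.

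The substrate of the Aoah enzyme is LPS, and 16 genes of LPS sensing and handling were examined beside it. Of the 15 tested, 10 rose and 1 fell in TNF+ lungs (median log2 fold change 0.73, against 24.0% higher, 23.4% lower and a median of 0.03 over all genes tested). All 8 pan-myeloid markers rose in the same lungs (median 2.75), and their part in this count was not tested. Cd14, the surface receptor that hands LPS to its signalling complex, had 4949, 4647 and 3595 counts in TNF+ replicates 1, 2 and 3 and 661, 755 and 1120 in TNF- replicates 1, 2 and 3 (log2 fold change 2.65, SE 0.26, adjusted p = 0.00013). The genes of the signalling complex had smaller log2 fold changes, with Tlr4 at 0.73 (SE 0.17, adjusted p = 0.0087) and its partner Ly96 at 1.48 (SE 0.21, adjusted p = 0.00079). Ly86, which pairs with a Toll-like relative, rose by 2.87 (SE 0.15), the adaptor gene Ticam2 by 2.84 (SE 0.17), and Casp4, which binds LPS in the cytosol, by 2.15 (SE 0.29). Scarb1, a lipoprotein receptor that also takes up LPS, fell by 0.54 (SE 0.08, adjusted p = 0.0013).

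Beside Pla2g7, 8 other genes that make, sense or degrade PAF were examined, of which 3 rose and 2 fell (median 0.19). Over all genes tested 24.0% were higher and 23.4% lower, so that a count of this size in so short a list is not a result about the list. Ptafr, the PAF receptor, had 1395, 1314 and 1687 counts in TNF+ replicates 1, 2 and 3 and 110, 110 and 128 in TNF- replicates 1, 2 and 3 (log2 fold change 3.88, SE 0.14, adjusted p = 2.7e-06). Lpcat2, the acetyltransferase that makes PAF in inflammatory cells, rose by 3.52 (SE 0.16, adjusted p = 5e-06). Pafah2, an intracellular enzyme that degrades PAF, fell by 1.01 (SE 0.11, adjusted p = 0.00023), so it moved against the secreted enzyme encoded by Pla2g7. Pla2g4a, which releases the lipid precursor, was 0.41 higher (SE 0.12, adjusted p = 0.027), and the surfactant lipid acyltransferase gene Lpcat1 was 0.35 lower on the log2 scale (-0.35, SE 0.11, adjusted p = 0.026). The call of Pla2g4a was lost without TNF+ replicate 1 or 3 or TNF- replicate 1 or 2 (adjusted p = 0.073 to 0.117), and that of Lpcat1 without TNF+ replicate 2 or 3 or TNF- replicate 1 or 2 (adjusted p = 0.055 to 0.089). The call of Pla2g4a was also lost with the DESeq2 Wald test (adjusted p = 0.052), with scaling by total counts alone (0.090) and with no filter on low counts (0.080). When a replicate block was added to the fit, the calls of both Pla2g4a (adjusted p = 0.061) and Lpcat1 (0.055) were lost. Only 3 genes of the list were called without TNF+ replicate 3, without TNF- replicate 1 or without TNF- replicate 2.

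Among 17 other phospholipase A2 genes, 12 were tested, of which 3 rose and 2 fell (median -0.13), shares near the 24.0% higher and 23.4% lower over all genes tested, so the count sets nothing apart in this list. Genes of 2 secreted enzymes had log2 fold changes near that of Pla2g7. Pla2g2d had 8117, 13592 and 7538 counts in TNF+ replicates 1, 2 and 3 and 80, 110 and 234 in TNF- replicates 1, 2 and 3 (log2 fold change 6.35, SE 0.45, adjusted p = 2.5e-05). Pla2g5 had 376, 627 and 445 counts in TNF+ and 5, 12 and 19 in TNF- lungs (5.53, SE 0.37, adjusted p = 2e-05). The lysosomal gene Pla2g15 rose by 0.60 (SE 0.09), while Pla2g1b fell by 0.59 (SE 0.14) and Pla2g3 fell by 1.62 (SE 0.41). Without both TNF+ replicate 1 and TNF- replicate 1, the call of Pla2g3 was lost (adjusted p = 0.093).

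Lacc1 acts beside enzymes of purine nucleosides, citrulline and polyamines, and of these 15 genes 5 were higher and 4 lower, with a median of 0.06. These shares are not far from the 24.0% higher and 23.4% lower over all genes tested. The genes that rose included the inducible nitric oxide synthase gene Nos2 (1.78, SE 0.28, adjusted p = 0.0014), Ass1 (1.48, SE 0.14, adjusted p = 9e-05) and Asl (0.72, SE 0.14, adjusted p = 0.004). The purine salvage gene Hprt rose by 0.73 (SE 0.11), whereas Nt5e, which makes adenosine at the cell surface, fell by 0.94 (SE 0.10) and the adenosine kinase gene Adk fell by 0.75 (SE 0.09). The polyamine gene Sms fell by 0.54 (SE 0.11) and Odc1 fell by 0.53 (SE 0.16), but the call of Odc1 was lost without TNF+ replicate 2 or 3 or TNF- replicate 3 (adjusted p = 0.063 to 0.085) and with the replicate block (adjusted p = 0.070). Pnp, the nucleoside phosphorylase gene, was at 0.17 (SE 0.10, adjusted p = 0.193). The call of Asl was lost without both TNF+ replicate 1 and TNF- replicate 1 (adjusted p = 0.053).

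The value of Ada, the adenosine deaminase gene, depended on 1 lung. It had 198, 207 and 200 counts in TNF+ replicates 1, 2 and 3 and 2717, 119 and 95 in TNF- replicates 1, 2 and 3, so that the fitted log2 fold change was -2.08 (SE 1.14, adjusted p = 0.168). The high lung, TNF- replicate 1, is the one with 102003 counts of Krt4 and Krt13. Without it, Ada was higher in TNF+ lungs, at 1.13 on the log2 scale (adjusted p = 0.0078). The phospholipase A2 genes Pla2g2f, Pla2g4d and Pla2g4e, named after their values were seen, also had most of their counts in that lung, at 53, 29 and 82, against at most 11 in any other. The part of the keratin-rich material in these values was not tested. For the 4 genes, TNF- replicate 1 deviated from its group's mean log2 CPM by -0.19 (Aoah) to 0.12 (Igsf6), and it was the TNF- lung farthest from the mean for these 2 genes.

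Receptors of Igsf6's own superfamily on myeloid cells moved mostly upwards, with 24 of 29 tested genes higher and 3 lower (median 2.12), against 24.0% higher and 23.4% lower over all genes tested. Trem2, a lipid receptor of macrophages, had the largest rise of the list at 4.93 (SE 0.24, adjusted p = 5.8e-06), with 2355, 3772 and 2596 counts in TNF+ replicates 1, 2 and 3 and 81, 110 and 143 in TNF- replicates 1, 2 and 3. The inhibitory receptor genes Lilrb4a (3.69, SE 0.18) and Pirb (3.28, SE 0.15) and the activating receptor gene Pira2 (3.37, SE 0.16) rose as well. Treml1, a receptor of platelets, fell by 3.25 (SE 0.30), and Treml2 fell by 1.32 (SE 0.19) and Siglecf fell by 1.27 (SE 0.25). Myeloid transcription factor genes moved the same way, with 13 of 17 higher, 1 lower and a median of 1.06. Among those that rose were Tfec (2.48, SE 0.17), Spi1, which encodes PU.1 (2.32, SE 0.09), and Mitf (2.00, SE 0.15), while Klf4 fell by 0.72 (SE 0.14). Pan-myeloid markers rose in the same lungs, and their part in the counts of these lists was not tested.

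**Figure D4:**
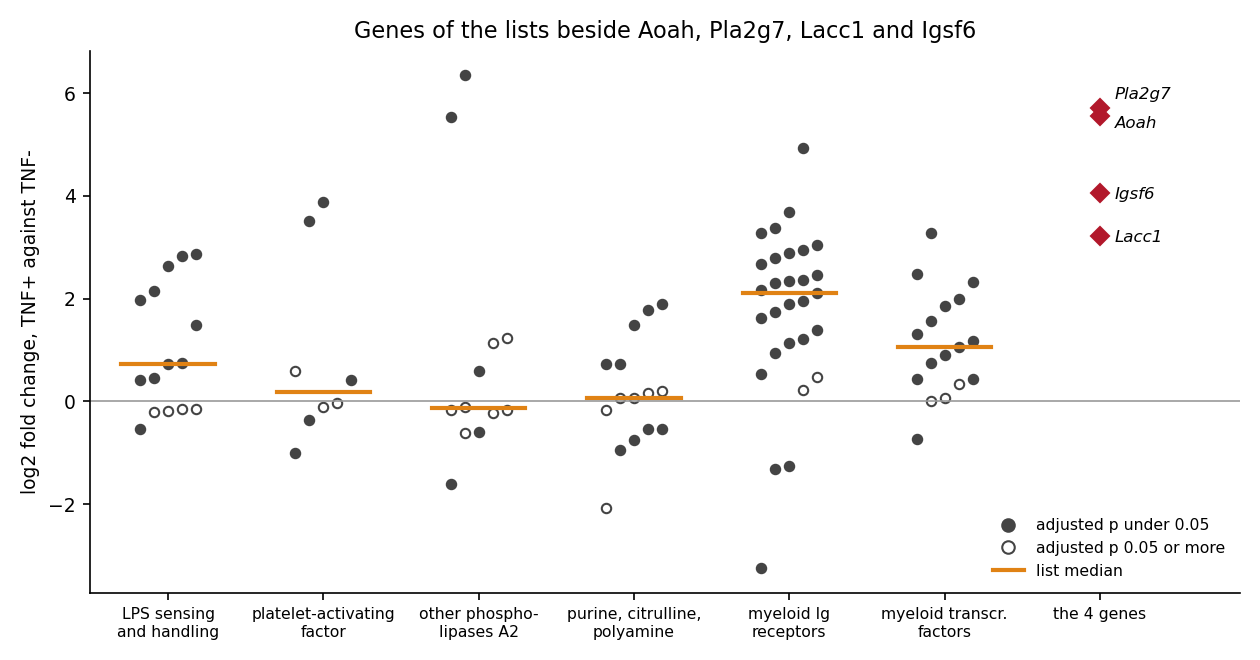
The log2 fold change, TNF+ against TNF-, of each tested gene in 6 lists (filled circles, adjusted p under 0.05; open circles, 0.05 or more; orange lines, list medians) beside Aoah, Pla2g7, Igsf6 and Lacc1 (diamonds). Among phospholipase A2 genes Pla2g2d (6.35) and Pla2g5 (5.53) lie at the height of Pla2g7 (5.72), and the purine, citrulline and polyamine genes lie on both sides of 0.

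Some of these genes share sequence with near copies or with genes that overlap them, and counting by gene can split or drop such reads. The share of 100-base transcript windows also found in another gene was 10% or more for 13 of 70 named genes. It was 84.1% for Pira2, 64.3% for Itgam, 39.3% for Ccl19, 35.2% for Lilrb4a, 26.9% for Ass1 and 20.8% for Pirb, and 10.1% to 18.5% for others, among them Slc6a20a, Pnp, Sms, Ticam2, Odc1 and Mettl9, so that their counts are less certain. For the 4 genes themselves it was 0% for Aoah and Igsf6, 3.40% for Pla2g7 and 0.96% for Lacc1. The latter 2 share it with the overlapping genes 1700071M16Rik and Ccdc122.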

How the data were processed

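Whole lungs of 3 TNF+ and 3 TNF- mice were sequenced as single-end 100-base reads from stranded, poly(A)-selected libraries. The authors deposited a table of raw read counts per gene symbol, not normalized. The submitters' processing notes name Trimmomatic 0.36, STAR 2.5.2b, featureCounts and build GRCm38.p5, and the gene annotation and the strand setting of counting are not given in the sources used here. From these counts, the quasi-likelihood test of edgeR 4.0.16 (filterByExpr, TMM normalization, genotype as the only term, all 6 lungs) was run in R 4.3.3 over the 19199 genes that passed the filter, and p-values were adjusted by the Benjamini-Hochberg method with a threshold of 0.05. SE was the log2 fold change divided by the square root of F. Log2 CPM used a prior count of 2. Levels per length used exon lengths of GENCODE M21, in which 47206 of 49568 symbols matched 1 gene model. Replicates are separate animals. The alternatives were DESeq2 1.42.0, other scalings and filters, a replicate block and leaving out lungs. Named genes were the 4 genes, the 4 largest called rises and 3 largest called falls of each pathway list, 11 fixed genes, the neighbours by position, by rank and by likeness (5 per gene, mean log2 CPM of at least 1), and cell markers that lead or go against their list. Some genes that this rule names are not reported here. The genes and lists were chosen with earlier results of these data known.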

Additional observations from a re-analysis of the deposited data

How the results depend on the processing

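The log2 fold changes of the 4 genes moved little over the 13 alternatives run, from 5.45 to 5.62 for Aoah, 5.56 to 5.83 for Pla2g7, 3.14 to 3.26 for Lacc1 and 3.98 to 4.12 for Igsf6. Replicate numbers did not pair the lungs, since deviations of same-numbered lungs correlated at -0.15, -0.004 and -0.24. With the number as a replicate block, 7686 genes were called in place of 9096, and 3 genes of the PAF list in place of 5. That list gave 3 to 6 calls when 1 lung was left out, and 3 without both lungs that stand apart, an alternative chosen after seeing the data, which called 6064 genes over the whole table. With a log2 fold change of at least 1 also required, 4320 genes were called (1980 higher and 2340 lower), with 6 in the LPS list, 3 in the PAF list, 3 other phospholipase A2 genes, 3 in the purine, citrulline and polyamine list and 9 transcription factors. Relative to alveolar macrophage markers in place of pan-myeloid ones, the 4 genes differed by 5.04 (Aoah), 5.21 (Pla2g7), 2.71 (Lacc1) and 3.56 (Igsf6) on the log2 scale, and relative to interstitial macrophage and monocyte markers by 3.11, 3.28, 0.78 and 1.63. As TPM, their TNF+ levels were 28.8 (Aoah), 300.4 (Pla2g7), 25.4 (Lacc1) and 88.6 (Igsf6). Leaving out 1 lung changed the direction of Ada (log2 fold change -2.61 to 1.13, and 0.98 without both lungs that stand apart), Ankrd66 (-0.060 to 0.46) and Mfsd13b (-0.51 to 0.29). The cause of these changes was not tested. With 56 to 75 counts in TNF- lungs, Aoah had a larger counting error there than the other 3 genes. The effect of depth on the fold changes was not tested.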
